A study of Drosophila melanogaster with 4 samples.

Results

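Chromosome 4 of Drosophila melanogaster was examined for trimethylation of histone H3 at lysine 27 (H3K27me3) in 1352 consecutive bins of 1 kb, out of 139719 such bins on the sequences with a called region. The bins ran from base 1 to the end of the chromosome sequence at base 1351857, so the last bin was shorter than 1 kb. Every bin was taken whatever its value, but this choice was made with earlier results of these data known. Chromatin immunoprecipitation followed by sequencing (ChIP-seq) had been done on head nuclei of mixed adults of the wild-type strain Oregon-R, from flies kept in population cages. The antibody against H3K27me3 was from Abcam, lot 3. There were 2 ChIP replicates, each with its own input of sheared chromatin that was not precipitated, and the flies carried no transgene, mutation or treatment by the labels. The heads were pooled from many flies by sieving, so every value is an average over the cell types of the head, and it is not stated in the labels if the replicates were collected separately.

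H3K27me3 is made by the Polycomb repressive complex PRC2, whose catalytic subunit in flies is E(z), and it lies in broad domains over developmental genes that are kept silent. Chromosome 4 is the small dot chromosome of the fly. Its sequenced part carries active genes among many repeats and is largely coated by HP1a and the chromosome-specific protein POF, with H3K9 methylation in place of ordinary euchromatin. It also holds developmental regulators, among them the Pax6 genes ey and toy of eye development, the Hedgehog effector ci and the Pax2 gene sv. From a list of 27 genes written for this chromosome, 26 were found on it in the release 6 gene table, which holds 80 protein-coding genes there. The regulators follow one another in that table in the order ci, dati, zfh2, onecut, ey, Sox102F, fd102C, toy and sv. The regions are on release 5, so none of these genes was placed in or outside a region, and positions below are release 5 bases counted from the end of the sequence that lies toward the centromere. No sequence is printed, because no release 5 genome was used here.

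A list of enriched regions came with each ChIP replicate, and another with the series as a whole. Each region has 1 score from the authors, on a scale that no source used here gives, so scores are set side by side only within a list. The depth of each library is unknown from these lists. Signal below the threshold of the region calling is not seen, so an uncovered bin is one without a called region and not one shown to lack the mark.

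A bin was counted as covered in a list when at least 50% of its bases lay in an enriched region. Replicate 1 covered 257 of the 1352 bins of chromosome 4, against 20.6% of all bins of the series in that list. Replicate 2 covered 110 bins, against 29.6% of all bins. As shares of the chromosome these were 19.0% in replicate 1 and 8.14% in replicate 2, so replicate 1 was near the share of its whole list and replicate 2 was far below it. Coverage had few intermediate values in replicate 1, where 230 bins were covered over their whole length and 9 were touched over less than 50%. In replicate 2, 62 bins were covered whole and 33 were touched over less than 50%.

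Taken by class, 99 bins were shared by the replicates, 158 were covered by replicate 1 only and 11 by replicate 2 only, and 1084 were without coverage in either. These were 7.32%, 11.7%, 0.814% and 80.2% of the chromosome, against 17.7%, 2.83%, 11.9% and 67.5% of all bins of the series. The 99 shared bins were most of the 110 bins of replicate 2, but 38.5% of the 257 of replicate 1. On the 5 major arms (2L, 2R, 3L, 3R and X) the shares stood the other way, with 60.9% of the bins of replicate 2 and 86.8% of those of replicate 1 shared. Bins of replicate 1 only outnumbered those of replicate 2 only by 14.4 to 1 on chromosome 4, against 0.237 to 1 on the major arms, where single arms ran from 0.182 on 2R to 0.373 on 2L. The 11 bins of replicate 2 only became 17 with any base of a bin counted and 0 with bins of 5000 bp. The size of the ratio on chromosome 4 is therefore not firm. The values describe 2 libraries, and the counts of 1 kind of bin have no replicate of their own.

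**Figure D1:**
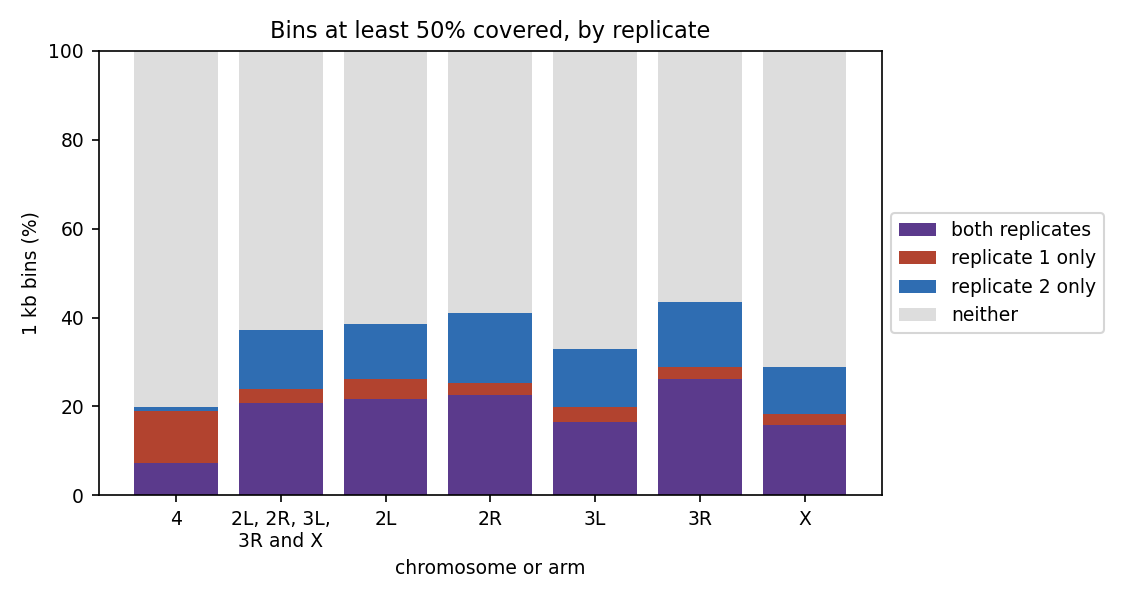
Share of 1 kb bins (%, vertical axis) covered in both replicates, in 1 of them or in neither, for chromosome 4, the 5 major arms together and each major arm (horizontal axis). On chromosome 4 the part covered in replicate 1 only (11.7%) exceeds that covered in replicate 2 only (0.814%), and on the major arms together the part of replicate 2 only (13.3%) exceeds that of replicate 1 only (3.16%).

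Covered bins were gathered in the middle of the chromosome and formed 6 long blocks. A block was defined, after the regions had been seen, as regions of either replicate joined across gaps under 10 kb, and it was called long from 20 kb. The 6 long blocks took up 253 kb, or 18.7% of the chromosome, and lay between bases 396139 and 1131145. They held 97.6% of the covered length of replicate 1, in 18 of its 21 regions, and 89.0% of that of replicate 2, in 36 of its 43 regions. Of the 99 bins covered in both replicates, 97 lay in these blocks. So did 153 of the 158 bins of replicate 1 only, but 1 of the 11 bins of replicate 2 only.

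**Figure D2:**
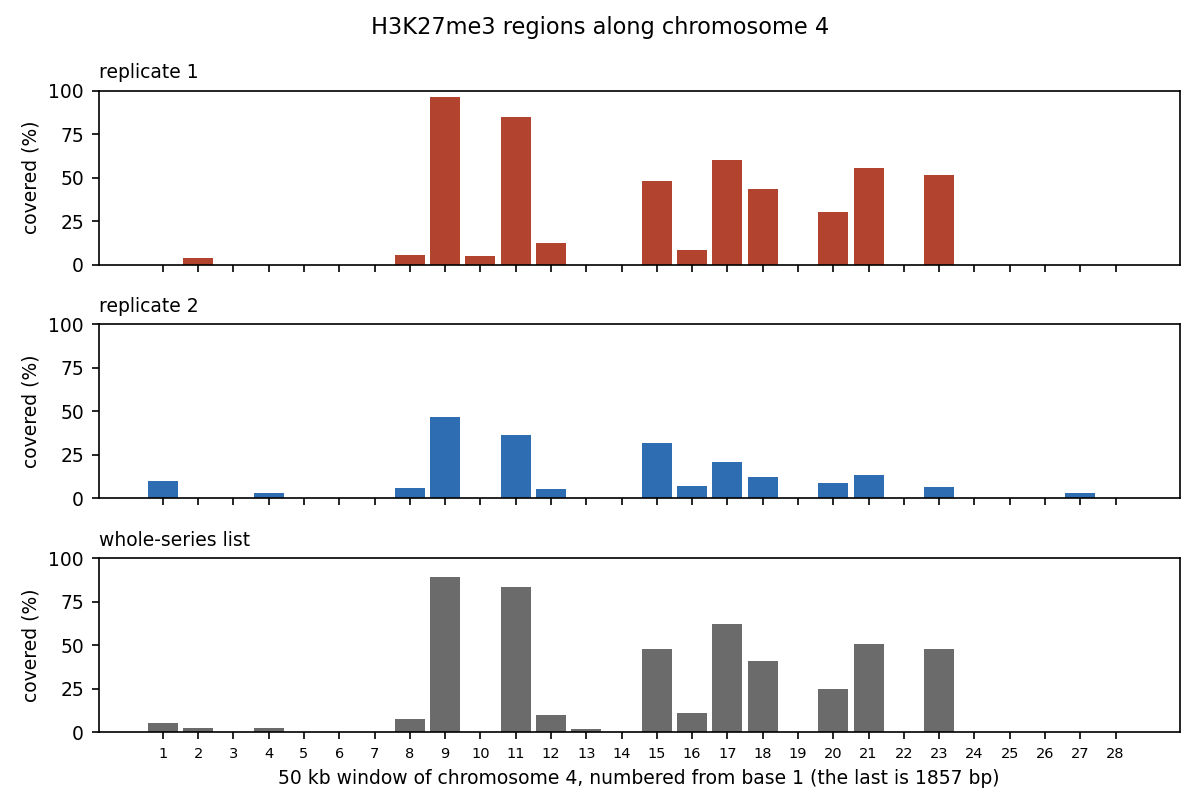
Share of each 50 kb window of chromosome 4 that lies in enriched regions (%, vertical axis) by window number from base 1 (horizontal axis), with 1 panel per list. Window 9 has the highest share in both replicates, 96.0% in replicate 1 and 46.6% in replicate 2, and 12 of the 28 windows have no region in either.

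The first long block, the longest, spanned 56.5 kb at bases 396139 to 452604. Replicate 1 covered 53.4 kb of it in 6 regions and replicate 2 covered 26.2 kb in 11 regions, so that 26 of its bins were covered in both and 29 in replicate 1 only. Replicate 2 started 1099 bp before replicate 1 here, the one long block in which it reached farther out at either end. The 5 other long blocks were bounded on both sides by replicate 1, and all of the length of replicate 2 in them lay inside regions of replicate 1.

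The second block spanned 48.9 kb at bases 507490 to 556421, nearly all of it 1 region of replicate 1. That region, at 507490 to 552860, was the widest of chromosome 4 in replicate 1 at 45.4 kb and had the third highest score there (1.48). Replicate 2 covered 21.0 kb of the block in 8 regions, 5 of which followed one another closely at its far end. This was where the longest run of bins covered in both replicates lay, 11 bins at 542001 to 553000, and the third longest, 7 bins at 522001 to 529000. Between them and before them were 2 of the longest runs of replicate 1 only, 10 bins at 529001 to 539000 and 11 bins at 511001 to 522000.

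The third block took up 24.1 kb at bases 718118 to 742254. It was 1 region in replicate 1, with the highest score of that list on the chromosome (1.57). Replicate 2 covered 66.6% of it in 4 regions, among them its widest pair on chromosome 4, one of 6.26 kb at 731384 to 737647 and one of 5.80 kb at 720898 to 726700, with scores of 1.33 and 1.36. Bins covered in both replicates numbered 17 here and bins of replicate 1 only 7, and the runs of 9 bins at 729001 to 738000 and 6 bins at 721001 to 727000 were among the 5 longest shared runs. It was the one long block with more shared bins than bins of a single replicate.

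Replicate 2 covered a smaller share of each of the 3 blocks nearest the chromosome end. The fourth block spanned 54.4 kb at bases 818638 to 873035, and replicate 1 covered 52.0 kb of it in 4 regions, against 16.7 kb in 6 regions in replicate 2. Both replicates covered its start, where the fifth longest shared run of 6 bins lay at 819001 to 825000. The longest run of replicate 1 only then followed, 18 bins at 835001 to 853000, and another of 10 bins lay at 860001 to 870000. Replicate 2 had no region in the last 12583 bp of the block. Within it, replicate 1 had regions of 30.8 kb at 839324 to 870141 and of 13.2 kb at 825810 to 839035, and the narrower of these had the second highest score of the list on the chromosome.

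The fifth block spanned 43.3 kb at bases 984320 to 1027612. Its main region in replicate 1, 36.3 kb at 991358 to 1027612, was the second widest on the chromosome. Replicate 2 covered 25.3% of the block in 5 separate regions of at most 3.15 kb, and 12 bins were shared against 32 of replicate 1 only, 10 of them in a run at 987001 to 997000. Of the 5 regions, the one at 1019414 to 1022565 had the highest score of replicate 2 on chromosome 4 (1.48). The block with the highest score of replicate 2 was thus one of which it covered a small share.

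The sixth block, 25.7 kb at bases 1105428 to 1131145, was a single region in replicate 1 with a score of 1.23, the sixth highest of 21. Replicate 2 covered 12.6% of it with 2 regions, whose scores of 0.331 and 0.131 ranked 38 and 42 of the 43. Only 3 bins were shared and 23 were of replicate 1 only, including the run of 11 bins at 1120001 to 1131000.

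**Figure D3:**
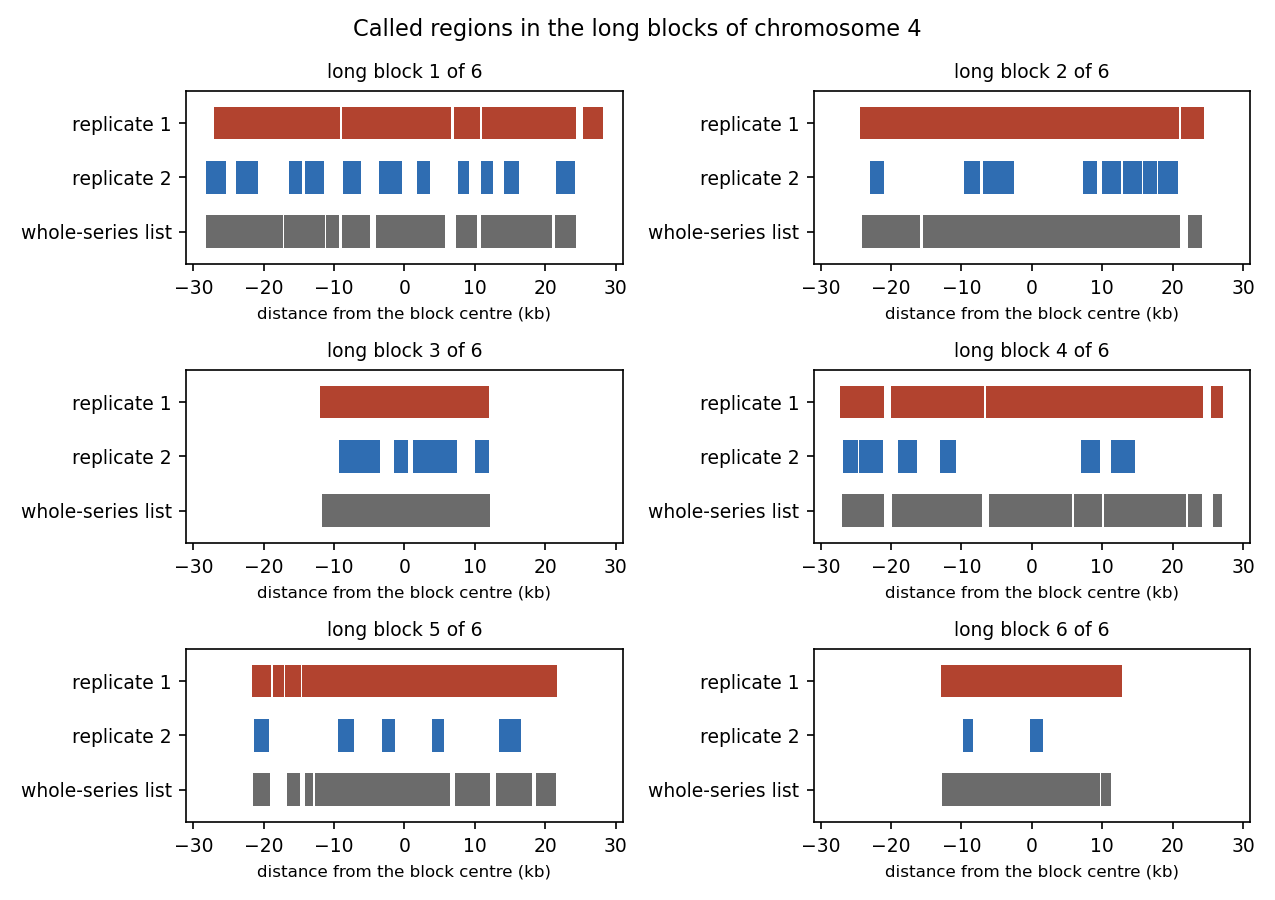
Enriched regions of replicate 1, replicate 2 and the whole-series list (rows) in the 6 long blocks of chromosome 4, by distance from the centre of each block (kb, horizontal axis). Replicate 1 fills 94.5% to 100% of each block, and replicate 2 lies in separate pieces inside it that make up 12.6% to 66.6%.

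The share of a long block covered in replicate 2 was 42.9% to 66.6% in the first 3 blocks and 12.6% to 30.6% in the last 3. In replicate 1 it was 94.5% or more in all 6. Blocks were built from regions of either replicate, so this contrast is partly set by their definition. With replicate 2 alone, 4 blocks reached 20 kb. The gaps between neighbouring regions inside the long blocks describe the same coverage in part, because uncovered ends of a block are not counted in them. In replicate 1 there were 12 gaps with a median of 287 bp and a maximum of 1190 bp, together 5.18 kb. In replicate 2 there were 30 gaps with a median of 2326.5 bp and a maximum of 17745 bp, together 114 kb.

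Outside the long blocks, what each replicate covered was narrow and rarely shared. The 7 short blocks together held 6.11 kb of replicate 1 in 3 regions and 11.7 kb of replicate 2 in 7 regions, with 2 shared bins. Those 2 bins lay at the region of replicate 2 at 768143 to 769905, which sat inside a region of replicate 1. The other regions of replicate 1 were at 97479 to 99402, with a score of 1.04, and at 755480 to 757722, with a score of 0.582, and replicate 2 touched neither. In replicate 2 the unshared regions were at 2269 to 4515, 16133 to 17443, 19419 to 20980, 165758 to 167323, 775958 to 777665 and 1339507 to 1341025.

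The 7 runs of bins of replicate 2 only were short. They were 3 bins at 2001 to 5000, 2 bins at 19001 to 21000, 2 bins at 776001 to 778000, and single bins at 16001, 166001, 396001 and 1340001. Coverage in replicate 2 reached from bin 3 to bin 1341. Replicate 1 reached from bin 98 to bin 1131 and the whole-series list from bin 4 to bin 1130. Both outermost regions of replicate 2 thus fell outside the range of replicate 1.

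Long parts of chromosome 4 had no called region. The longest run of bins covered in neither replicate was 229 bins at 167001 to 396000, up to the edge of the first long block. It was followed by 209 bins at 1131001 to 1340000, 162 bins at 556001 to 718000, 111 bins at 873001 to 984000 and 77 bins at 1028001 to 1105000. These 5 runs held 72.7% of the 1084 bins in neither. Counted in bases over all 3 lists, the longest stretches with no region lay at 167324 to 396118 (229 kb) and at 1131146 to 1339506 (208 kb). Of the intervals between neighbouring long blocks 3 held no region of any list, at 452605 to 507489, 873036 to 984319 and 1027613 to 1105427.

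The regions of chromosome 4 differed in width between the replicates. In replicate 1, 9 of 21 regions were at least 10 kb wide and held 86.7% of the covered length. In replicate 2 none of 43 was, and the widest had 6264 bp. On the major arms regions of this width made up 10.3% of the list of replicate 1 and 6.57% of that of replicate 2, so chromosome 4 stood above the arms in one list and below in the other. The 5 widest of replicate 1 were those already given at 507490, 991358 and 839324, followed by 25.7 kb at 1105428 to 1131145 and 24.1 kb at 718118 to 742254. After the widest pair of replicate 2 came 4.37 kb at 525078 to 529449 in the second block, and then 2 regions of the fourth block, at 821235 to 824671 (3.44 kb) and at 857129 to 860452 (3.32 kb).

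The 9 wide regions of replicate 1 were matched by 31 pieces of replicate 2. The share of each that lay in replicate 2 ran from 12.6% to 66.6%, with a median of 37.5%. On the major arms, 495 regions of replicate 1 were at least 10 kb wide, and a median of 94.8% of their length lay in replicate 2. Of these 495, 5 were at or below the chromosome 4 median of 37.5% and 37 (7.47%) were at or below its highest value. These are regions of 2 libraries, and no test between libraries was possible.

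Regions were also compared whole, counting a touch of any length. These counts were made for chromosome 4 only, so they are not read as particular to it. Of the 21 regions of replicate 1, 14 touched replicate 2, and none of them was covered whole by it. Of the 43 regions of replicate 2, 37 touched replicate 1, and 35 of these lay wholly inside its regions. The 7 unshared regions of replicate 1 were 1608 to 3275 bp wide with a median score of 0.609, against 1.20 for the shared ones. The 6 unshared regions of replicate 2 were 1311 to 2247 bp wide, and their median score of 0.729 was close to that of the shared ones, 0.717.

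In both replicate lists, wider regions of chromosome 4 tended to have higher scores. The relation was not computed on the major arms, so it is not read as particular to this chromosome. Over the 21 regions of replicate 1 Spearman's rho was 0.78 and Pearson's r 0.66, and over the 43 of replicate 2 they were 0.71 and 0.67. The points of each share 1 library, and the values are descriptions. The 3 highest scores of replicate 1 lay in the third, the fourth and the second block, and ran from 1.57 down to 1.48. In replicate 2 they were 1.48 in the fifth block, 1.41 at 410249 to 412869 in the first and 1.36 in the third.

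**Figure D4:**
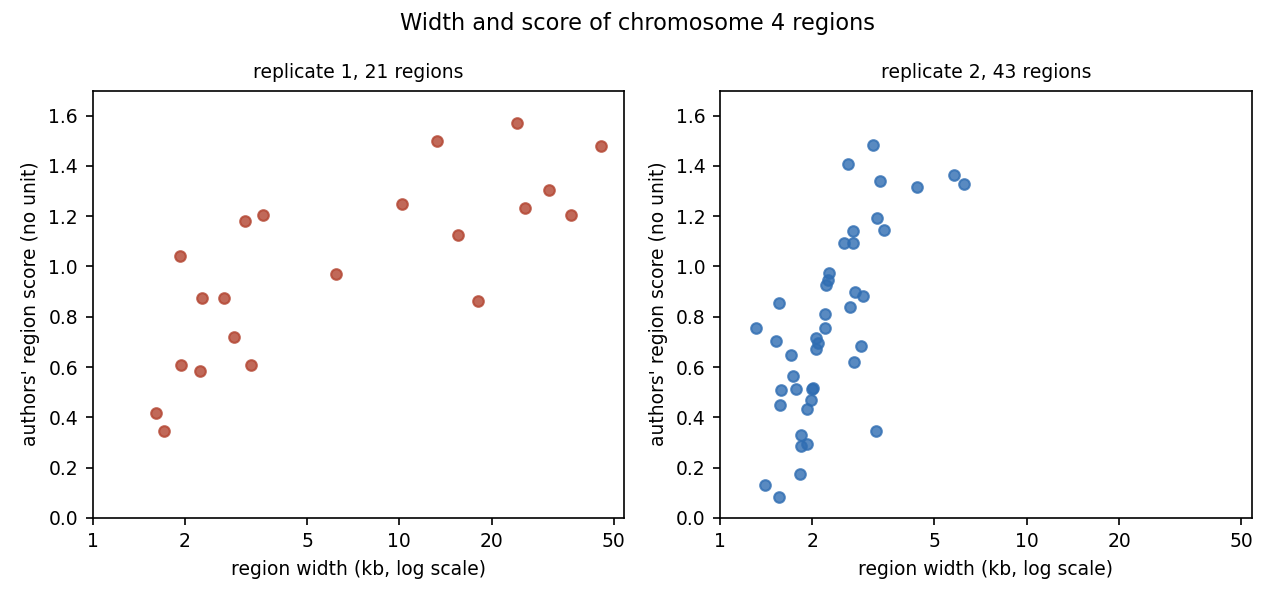
Region score as given by the authors (vertical axis, no unit) against region width (kb, log scale) for chromosome 4, with replicate 1 on the left and replicate 2 on the right. Replicate 1 has 9 regions of at least 10 kb and replicate 2 has none, and scores are to be read within a panel only.

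Compared with the major arms within the same list, the scores of chromosome 4 had a higher median in replicate 1 and a nearly equal one in replicate 2. The median score was 1.04 on chromosome 4 and 0.679 on the major arms in replicate 1. In replicate 2 it was 0.717 on chromosome 4 and 0.676 on the major arms. The difference between chromosome 4 and the arms was 0.36 in replicate 1 and 0.04 in replicate 2, each on the scale of its own list, and was not tested. The chromosome 4 median exceeded the scores of 91.6% of arm regions in replicate 1 and of 55.7% in replicate 2. Median region width was 3596 bp on chromosome 4 and 2155 bp on the major arms in replicate 1. In replicate 2 it was 2200 bp on chromosome 4 and 2168 bp on the major arms. Scores were not compared at equal width. A bin carries the score of its region, so shared and unshared bins of the same wide region have equal scores in replicate 1. The median bin score in replicate 1 was 1.30 over the 99 shared bins and 1.23 over the 158 bins of replicate 1 only. These medians are close in part by construction, and the bins are not separate observations.

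Coverage of chromosome 4 was compared with that of the major arms in each library. By bases, 18.7% of chromosome 4 was covered in replicate 1 and 7.82% in replicate 2. The differences from the major arms were -4.96 percentage points in replicate 1 and -25.7 in replicate 2. The mean was 13.3% ± 7.69 on chromosome 4 and 28.6% ± 6.98 on the major arms (SD, n = 2 each). The difference of -15.3 ± 14.7 points (SD, n = 2) had the same sign in both replicates, and its size was close to the spread between them. No test was run, because with 2 differences the smallest p of an exact sign-flip permutation test (two-sided) is 0.5.

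The major arms were also divided into 86 windows as long as chromosome 4. Replicate 1 covered less than on chromosome 4 in 29 of these windows and replicate 2 in 2 of them. The difference of replicate 1 minus replicate 2 was 10.9 percentage points on chromosome 4, and it ran from -22.2 to 6.68 points over the windows, with a median of -10.1. It was positive in 3 of the 86 windows, 1 each on 2L, 3L and X. The share of the covered length of replicate 1 that lay in replicate 2 was 37.4% on chromosome 4, and at least 44.4% in every window, with a median of 86.5%.

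**Figure D5:**
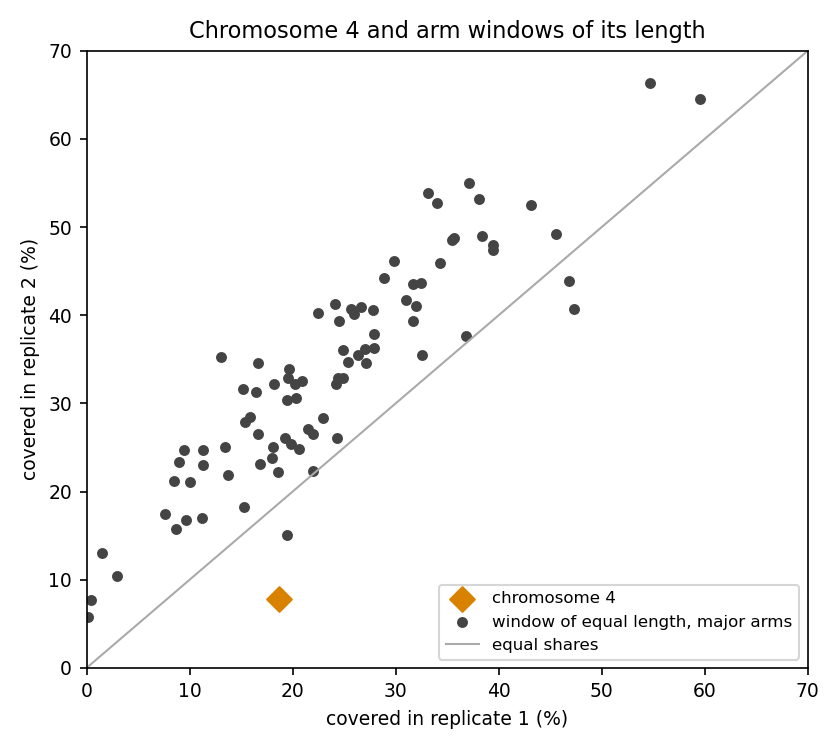
Share of sequence covered in replicate 2 (%, vertical axis) against replicate 1 (%, horizontal axis) for chromosome 4 (diamond) and 86 windows of its length on the major arms (points), with a line of equal shares. Chromosome 4, at 18.7% and 7.82%, lies below the line, as do 3 of the windows.

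The whole-series list covered 248 bins (18.3%) of chromosome 4, against 33.6% of all bins of the series in that list. It held all 99 bins covered in both replicates and 139 of the 158 of replicate 1 only. It also held 5 of the 11 of replicate 2 only and 5 of the 1084 in neither. These counts by class were not made over all bins of the series, so they are not read as particular to chromosome 4. In bases, the list held 86.8% of what replicate 1 alone covered on chromosome 4, against 86.1% on the major arms. For what replicate 2 alone covered, the shares were 52.5% on chromosome 4 and 86.0% on the major arms. The long blocks were filled to between 85.9% and 98.8% in this list. Its 3 widest regions on chromosome 4 lay at 516491 to 552993 in the second block (36.5 kb), at 718405 to 742268 in the third (23.9 kb) and at 993180 to 1012447 in the fifth (19.3 kb). This list is not independent of the replicates and does not count as a further one.

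Within the whole-series list, the median bin score was 1.02 over 99 shared bins and 0.784 over 139 bins of replicate 1 only. Bins inside the same region of this list repeat its score, so they are not separate observations and the difference was not tested. The quartiles overlapped, at 0.793 to 1.11 for shared bins and 0.597 to 1.02 for bins of replicate 1 only. Its 2 highest scores on chromosome 4 were 2.41, at 813283 to 814283, and 1.66, at 615462 to 616471, and neither region touched a replicate. They were 1001 and 1010 bp wide, narrower than any region of a replicate on this chromosome. The third highest, 1.27, belonged to the third block. In all, 5 of the 41 regions of this list on chromosome 4 touched neither replicate, and they were 1001 to 1275 bp wide. The share of such regions on the major arms was not counted, so this is not read as particular to chromosome 4.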

How the data were processed

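H3K27me3 ChIP-seq of adult heads gave 2 ChIP lists of enriched regions, each called by the authors against its own input per the labels, and 1 list for the whole series. Per the submitters' processing notes the aligner was Bowtie 0.12.7, and positions are on FlyBase release 5, per the file headers. The region caller, its threshold and read depth were not given in the sources used here. The authors deposited 1 score per region, used to rank regions within a list. One depleted region of replicate 2, on another arm, was left out. Bins of 1000 bp were laid from base 1 of each of the 13 sequences with a region, and the covered share of each bin was computed with Python 3.11.15 and numpy 2.4.6. A bin at least 50% covered was counted as covered, and its score is the mean of its regions' scores weighted by overlap. Bin code was checked on simulated lists, with 0 of 27040 bins wrong. The named regions were the 5 widest and 3 highest-scoring per replicate, 3 of each in the whole-series list, the 5 longest runs of bins per class, and the outermost covered bins, and others were chosen after their values were seen. Members, lists and tests were chosen with earlier results of these data known. Spread between the replicates may be technical.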

Additional observations from a re-analysis of the deposited data

How the results depend on the processing

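The direction of the difference between the replicates on chromosome 4 did not change under the alternatives run, and replicate 1 exceeded replicate 2 by 8.23 points (regions under 5000 bp apart joined, added after the data were seen) to 14.1 points (lists reduced by score to equal total length). The counts of bins in replicate 1 only, in neither and in the whole-series list stayed within 1.5 times. Bins covered in both replicates fell to 65 when 90% of a bin had to be covered. They fell to 64 without regions scored under the median of their list and to 60 with lists of equal length. They rose to 126 with any base of the bin and to 135 with regions under 5000 bp apart joined. Under that joining, bins of replicate 1 only fell to 125, so they no longer outnumbered the shared bins. Bins of replicate 2 only numbered 17 with any base, 6 at 90%, 0 with bins of 5000 bp, 7 without those under the median score, 4 with regions of at least 2000 bp and 6 with lists of equal length. The longest run in neither replicate was 395 kb with bins of 5000 bp and 391 kb with regions of at least 2000 bp, which drop narrow regions by construction. Without either replicate in turn, the covered share was 7.82% to 18.7%, the difference from the major arms -25.7 to -4.96 points, the difference in median score 0.0401 to 0.364 (each on its own list's scale) and the number of long blocks 4 (replicate 2 alone) to 6. The number of long blocks was 6 with gaps under 5 kb or 20 kb joined, settings added after the data were seen. No paired analysis was possible because no list of regions was made for an input alone. Unknown read depth limits every comparison of covered length between the replicates.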
